A study of Mus musculus with 6 samples.

Results

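Pericytes and smooth muscle cells wrap the vessels of a tumor, and 10 genes that mark these mural cells or build their contractile filaments were followed in 6 C0321 tumors. The genes were Acta2, Myh11, Tagln, Cnn1, Myl9, Ppp1r12b, Des, Rgs5, Pdgfrb and Mcam. They were chosen by symbol, as genes with an entry in the deposited table of counts, and all 10 were found, as 14 of 20648 transcripts and 10 of 13730 genes. They were also put forward with earlier results of the SS and control tumors in view, so the comparison of treated with control tumors is given for them as a description, without a p-value for any of them.

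C0321 is a mouse line of triple-negative breast cancer (TNBC) derived from Lfng knockout mice on the FVB background. Female FVB mice aged 6 to 10 weeks received C0321 cells, mixed with Matrigel, a basement membrane extract, in a mammary fat pad. Once a tumor could be felt, daily treatment by mouth began, with a control agent or with sulindac sulfide (SS), a nonsteroidal anti-inflammatory drug and γ-secretase modulator, at 60 mg/kg for 14 days. Both groups of 3 tumors thus shared the line with its Lfng deletion and the immunocompetent host, whose vessels, fat and muscle lie around the graft. The sample labels call the drug Sulindac Sulfate, and the control agent is saline in the series text and vehicle in the paper. Each tumor gave 1 library of polyadenylated RNA. Nothing states that the 6 tumors came from separate mice, so p-values measure the spread between these tumors. The deposited values are estimated counts, with totals of 8468914 to 24441522 per tumor and 8468914 to 13696665 in the SS tumors, and are given below as CPM, counts relative to the library total after TMM scaling. The receptor genes that define TNBC were low, with Esr1 at 4.48 to 6.40 CPM, Pgr at 0 to 3.81 CPM and Erbb2 at 17.1 to 22.4 CPM, and Lfng was still counted at 4.65 to 6.40 CPM. Fewer cells of a type and less RNA per cell cannot be told apart in such whole-tumor libraries.

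Contraction of smooth muscle rests on smooth muscle actin and myosin. Phosphorylation of the regulatory light chain by myosin light chain kinase starts it, and myosin phosphatase ends it. The genes of this apparatus are switched on by serum response factor (SRF) with cofactors of the myocardin family, which act at CArG boxes in their promoters. Pericytes sit on capillaries and are held there by endothelial PDGF-B acting on the receptor PDGFRβ. Many of the contractile genes are also active in myofibroblasts and in basal cells of the mammary gland, and Des is also a gene of skeletal muscle.

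The bases before the transcription start are shown for Acta2 and Myl9, as contractile genes whose promoters held CArG-type words, and for both starts of Ppp1r12b, whose groups did not overlap. The sequences are those of RefSeq on GRCm38, each 250 bases long, 5′ to 3′ on the strand of the gene. Capitals mark the CArG box, CC and GG around 6 bases of A or T, and the same word with 1 C or G among those 6.
Acta2, chr19:34255374-34255623, minus strand: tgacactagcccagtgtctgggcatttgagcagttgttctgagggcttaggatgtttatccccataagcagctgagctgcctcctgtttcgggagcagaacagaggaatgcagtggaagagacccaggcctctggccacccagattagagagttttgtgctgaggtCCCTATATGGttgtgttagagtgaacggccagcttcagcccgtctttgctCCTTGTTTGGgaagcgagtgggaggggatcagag
Myl9, chr2:156775214-156775463, plus strand: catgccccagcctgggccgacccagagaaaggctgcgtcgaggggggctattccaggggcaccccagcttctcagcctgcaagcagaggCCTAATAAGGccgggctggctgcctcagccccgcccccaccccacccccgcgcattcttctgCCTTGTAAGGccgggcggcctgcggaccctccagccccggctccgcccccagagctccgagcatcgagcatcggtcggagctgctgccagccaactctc
Ppp1r12b, long transcript, chr1:134955941-134956190, minus strand: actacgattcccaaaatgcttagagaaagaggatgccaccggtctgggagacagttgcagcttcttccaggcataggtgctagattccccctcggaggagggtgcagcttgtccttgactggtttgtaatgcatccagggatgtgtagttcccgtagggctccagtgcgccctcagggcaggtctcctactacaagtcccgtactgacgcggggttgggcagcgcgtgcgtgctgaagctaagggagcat
Ppp1r12b, inner start, chr1:134803843-134804092, minus strand: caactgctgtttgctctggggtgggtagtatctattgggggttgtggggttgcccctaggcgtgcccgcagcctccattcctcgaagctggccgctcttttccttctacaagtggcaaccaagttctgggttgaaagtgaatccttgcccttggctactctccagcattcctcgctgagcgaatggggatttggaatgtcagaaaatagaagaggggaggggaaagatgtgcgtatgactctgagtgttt

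Of the 10 genes, 7 had a promoter entry. Myl9 held 1 full CArG box, CCTAATAAGG, from 161 to 152 bases before the start, where 1.47% of 32851 promoters of this length held one. The form with 1 C or G was found in Myl9, as CCTTGTAAGG from 99 to 90 bases before the start, and in Acta2 as CCCTATATGG from 84 to 75 bases and as CCTTGTTTGG from 34 to 25 bases before it. That form was held by 7.24% of all promoters. Neither word was found in the windows of Cnn1, Des, Mcam, Rgs5 or Ppp1r12b. The MCAT box, CATTCC on either strand, was present at 3 places before the inner start of Ppp1r12b and at 1 place before Acta2, at 146 to 141 bases, without overlap with the CArG words, and 12.6% of promoters held it. That inner start lies 121 bases upstream of the noncoding transcript that the table lists for Ppp1r12b. A match of letters describes the window and says nothing of binding.

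Compared per kilobase of transcript, with lengths from GENCODE, the mean level over the 6 tumors was highest for Acta2, at 359 CPM per kilobase, followed by Des at 190.1, Tagln at 59.1, Myl9 at 37.4, Rgs5 at 12.3, Pdgfrb at 11.4, Ppp1r12b at 6.57, Myh11 at 4.50, Mcam at 3.51 and Cnn1 at 0.925 CPM per kilobase. Acta2 stood above Des in 6 of 6 tumors although their ranges overlapped. The ranges of Tagln and Myl9, of Myl9 and Rgs5 and of Mcam and Cnn1 did not overlap. The other neighbours in this order overlapped, and are not told apart beyond their spread. The place of Rgs5 also depends on an estimated split between transcripts of 723 and 4096 bases. The shorter one took 21.8 to 52.1% of its counts. On this scale smooth muscle myosin and calponin were far below smooth muscle actin.

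Over 10902 genes, with p-values adjusted by Benjamini-Hochberg, edgeR's quasi-likelihood test called no change: 0 genes (0%) had an adjusted p under 0.05 and 693 (6.36%) an unadjusted p under 0.05. The adjusted count was also 0 with limma-voom and with limma after quantile normalization, while DESeq2's Wald test called 35 genes, or 0.321%. DESeq2 gave no adjusted p to some genes, such as Esr1, and these stand as not called in its adjusted counts. Of the 10 members, 0 passed adjustment with edgeR and 1 with DESeq2. The count of members at an unadjusted p under 0.05 was 1 in edgeR (6.36% of all genes) and 2 in DESeq2 (6.31% of all genes). In edgeR it was 4 without control tumor 1, where 7.81% of all genes had one, and 2 without SS tumor 3, where 5.9% had one. SS and control tumors did not overlap for 1 member, Ppp1r12b, against 12.9% of genes in either direction and 6.51% that were higher in SS tumors. The log2 ratio of SS to control was above 0 for 5 members and below 0 for 5, with a median of 0.048 against -0.0014 over all genes tested. Nothing is read from these counts, since the members were picked knowing this comparison.

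**Figure D1:**
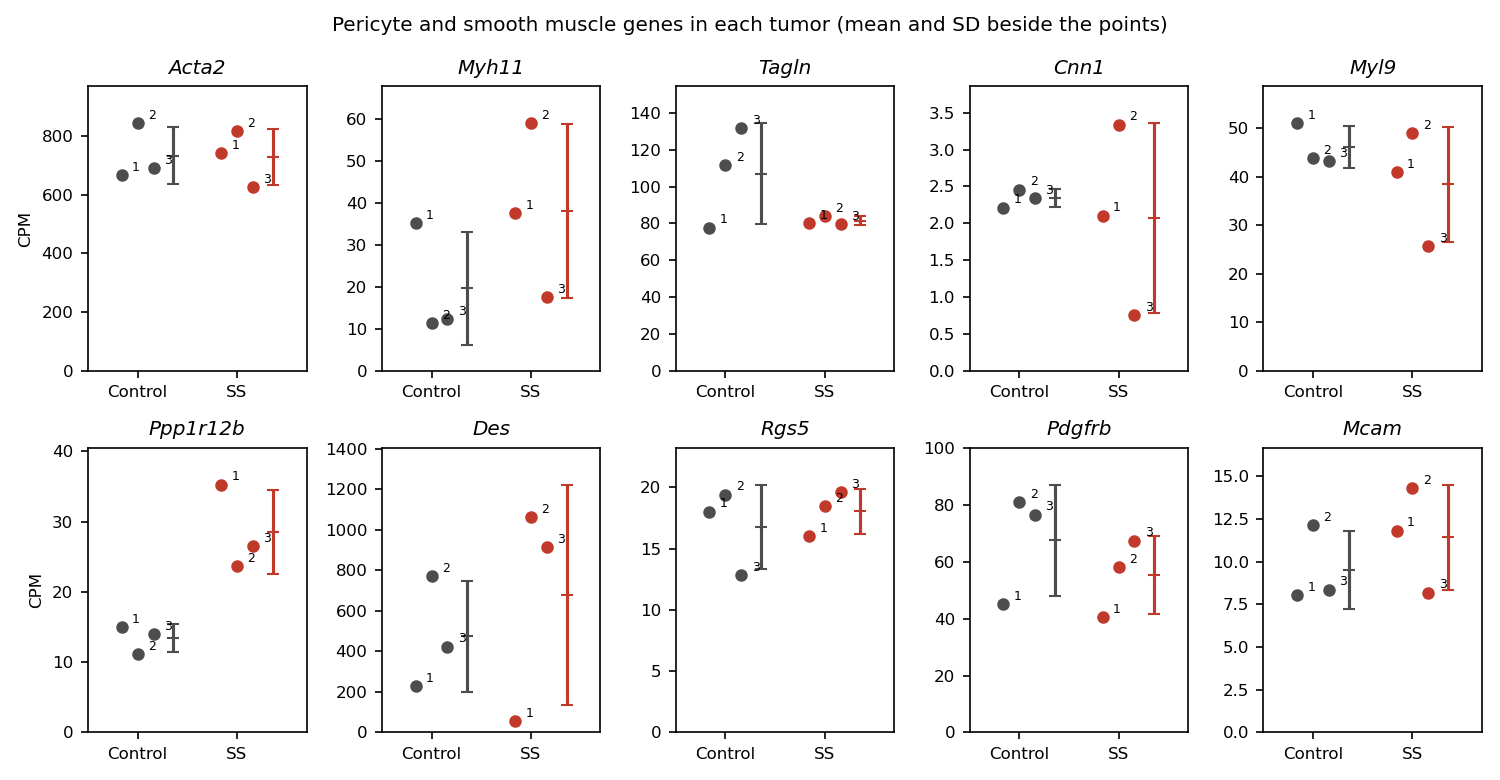
CPM of each of the 10 genes in the 3 control and 3 SS tumors, with the tumor number beside each point and the mean and SD at its right, on axes that start at 0. Ppp1r12b is the gene whose groups part, while Des spans 54.4 to 1062 CPM within the SS group.

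Acta2 encodes smooth muscle α-actin, the thin filament actin of vascular smooth muscle and of myofibroblasts (chromosome 19 from 34240336 to 34255373, minus strand, GRCm38). It was measured at 666, 843 and 689.8 CPM in control tumors 1, 2 and 3 and at 739.9, 816 and 625 CPM in SS tumors 1, 2 and 3. The groups lay on top of each other, and the whole range was 1.35-fold. SS tumors differed from controls by a log2 ratio of -0.011 ± 0.14 (SE), which ran from -0.10 to 0.10 with each tumor left out in turn. Between 6843 and 17146 counts per tumor stood behind these values.

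Tagln encodes transgelin, an actin-binding protein of smooth muscle (chromosome 9 from 45929628 to 45936058, minus strand). The control tumors gave 77.8, 112 and 132 CPM, and the SS tumors gave 80.3, 84.2 and 79.9 CPM. Control tumors 2 and 3 were above all SS tumors, whereas control tumor 1 was the lowest of the 6. The log2 ratio was -0.40 ± 0.18 (SE), between -0.58 without control tumor 1 and -0.22 without control tumor 3. The SS tumors were close together, with an SD of 2.38 CPM (n = 3) against 27.3 CPM (n = 3) in controls. Pcsk7, on the other strand, overlaps the span of Tagln in the table, and the strand setting of the counting is not given in the sources used here.

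Myl9 encodes the regulatory light chain of smooth muscle myosin, the substrate of myosin light chain kinase (chromosome 2 from 156775464 to 156781657, plus strand). Its levels were 50.98, 43.8 and 43.2 CPM in the controls, against 40.9, 48.9 and 25.6 CPM after SS. SS tumor 3 was well below the others, which overlapped. A log2 ratio of -0.26 ± 0.23 (SE) became -0.039 without SS tumor 3.

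Cnn1 encodes calponin, a marker of differentiated smooth muscle that binds actin (chromosome 9 from 22099253 to 22109221, plus strand). It rested on 9 to 57 counts per tumor. The control tumors gave 2.21, 2.46 and 2.34 CPM, while the SS tumors were spread over 2.10, 3.34 and 0.761 CPM. The log2 ratio of -0.19 ± 0.55 (SE) changed sign with the tumor left out, from -0.70 for SS tumor 2 to 0.21 for SS tumor 3.

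Myh11 encodes smooth muscle myosin heavy chain, a gene largely restricted to smooth muscle (chromosome 16 from 14194527 to 14291408, minus strand). Counts gave 35.3, 11.5 and 12.4 CPM in control tumors 1 to 3, and 37.7, 59.02 and 17.6 CPM in the SS tumors. Control tumor 1 lay with SS tumor 1, and SS tumor 3 with the lower controls, so that the groups overlapped although the SS mean was higher, 38.1 ± 20.7 against 19.7 ± 13.5 CPM (SD, n = 3 each). The log2 ratio of 0.96 ± 0.54 (SE) became 1.67 without control tumor 1 and 0.50 without SS tumor 2. Acta2 was highest in control tumor 2, where Myh11 was lowest.

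Myh11 was high in the tumors where the summed adipocyte and basal mammary lists were high. Of 12 adipocyte genes 10 had values, and their summed level was 93.3, 7.77 and 5.46 CPM in the control tumors and 41.9, 51.98 and 11.6 CPM in the SS tumors. Plin1, the coat protein of lipid droplets, was at 37.8, 0.0983 and 0 CPM in controls and 8.06, 14.7 and 0 CPM in SS tumors. Adipoq, the adipocyte hormone gene, was at 0 in control tumor 3 and SS tumor 3 and no higher than 0.596 CPM. The 10 genes of the basal mammary list summed to 258, 85.7 and 82.98 CPM in controls and to 154, 239 and 91.4 CPM in SS tumors, and Krt5, a basal keratin, was at 73.1, 1.13 and 1.44 CPM and 33.9, 26.7 and 0 CPM. Some basal genes did not share this order. Cdh3 was highest in control tumor 3, and Trp63 was at 0 in control tumor 3 and SS tumor 2. Lgr6, a receptor of R-spondins, was at 2.21, 8.31 and 9.89 CPM in controls and at 1.67, 0.119 and 1.94 CPM in SS tumors, with no overlap. Its log2 ratio was -2.41 ± 0.82 (SE), with an unadjusted p of 0.019 and, by edgeR's quasi-likelihood test, adjusted p = 0.771. It was the 1 of 7 tested basal genes (14.3%) with an unadjusted p under 0.05, against 6.36% of all genes. Control tumor 1 and SS tumors 1 and 2 were the higher tumors for Myh11 and for both sums. They were also the higher ones for the summed pericyte markers outside the members, at 193, 136 and 117 CPM in controls and 146, 216 and 144 CPM in SS tumors. The part of carried-over fat pad, gland or skin in the values of Myh11 was not tested.

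**Figure D2:**
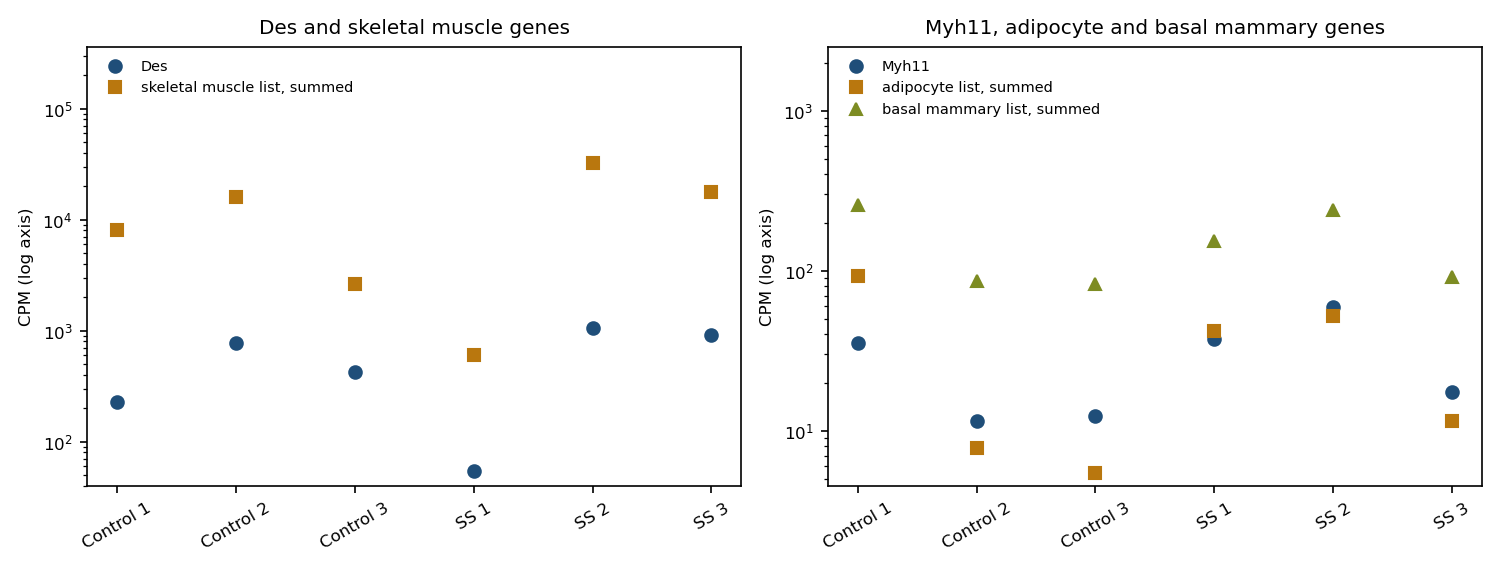
CPM on a log axis in each tumor for Des beside the summed skeletal muscle list (left) and for Myh11 beside the summed adipocyte and basal mammary lists (right). SS tumor 1 is lowest on the left for both, and control tumor 1 and SS tumors 1 and 2 are the higher ones on the right.

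Des encodes desmin, the intermediate filament of muscle, used as a marker of pericytes (chromosome 1 from 75360292 to 75368579, plus strand). It varied most among the members, with 227, 770.5 and 423 CPM in the control tumors and 54.4, 1062 and 916 CPM in the SS tumors, a 19.5-fold range. SS tumor 1 was the lowest and SS tumors 2 and 3 the highest of the 6, so the groups overlapped from end to end. The log2 ratio of 0.52 ± 0.88 (SE) changed sign with the method, to -0.092 under a replicate block, -0.14 with limma after quantile normalization and -0.26 with limma-voom. It was 1.06 without SS tumor 1, 1.06 without control tumor 2 and 0.032 without SS tumor 2.

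Genes of skeletal muscle were high and low in nearly the same tumors as Des. Of 30 such genes 29 had values, and they summed to 8125, 15980 and 2635 CPM in control and to 603, 32670 and 17920 CPM in SS tumors. Acta1, skeletal α-actin, was at 1742, 4318 and 719 CPM in controls and at 96.2, 8334 and 4895 CPM in SS tumors. The order of the tumors was the same for Des and for this list except that control tumors 1 and 3 changed places. The part of muscle carried over with the tumors in the values of Des was not tested. With the counts of the skeletal list taken out of the library totals, the difference of the mean log2 CPM of Des was -0.17, against -0.18 with the full totals. The list made up 0.0607 to 3.24% of the totals. This step changes the scaling only and cannot take counts from muscle out of Des.

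Ppp1r12b encodes MYPT2, a targeting subunit that brings the myosin phosphatase to myosin and is best known from striated muscle (chromosome 1 from 134765943 to 134955940, minus strand). Control tumors held 15.02, 11.2 and 14.04 CPM, and SS tumors held 35.3, 23.7 and 26.5 CPM. Each SS tumor was above each control, with means of 28.5 ± 6.02 and 13.4 ± 2.01 CPM (SD, n = 3 each). The log2 ratio was 1.09 ± 0.21 (SE), and it stayed between 0.91 without SS tumor 1 and 1.21 without SS tumor 2. From 190 to 486 counts per tumor stood behind these values. SS tumor 1, the highest for Ppp1r12b, was the lowest for the skeletal muscle list. No other gene of the table overlapped the span of Ppp1r12b.

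The table holds 2 transcripts of Ppp1r12b, and the groups parted for 1 of them. The coding transcript NM_001081307, which begins beside the promoter shown for the long transcript, was at 12.6, 8.99 and 12.3 CPM in controls and at 32.2, 22.7 and 25.4 CPM in SS tumors. The noncoding transcript NR_015606, which starts inside the gene, 121 bases downstream of the inner start shown, was at 2.45, 2.16 and 1.72 CPM in controls and at 3.12, 1.07 and 1.10 CPM in SS tumors, so that the groups overlapped. For transcripts the log2 ratio is a difference of mean log2 CPM with a small constant added, not edgeR's estimate. It was 1.21 for the coding and -0.31 for the noncoding transcript. The split between them is an estimate, and the noncoding one rests on 9 to 44 counts per tumor.

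**Figure D3:**
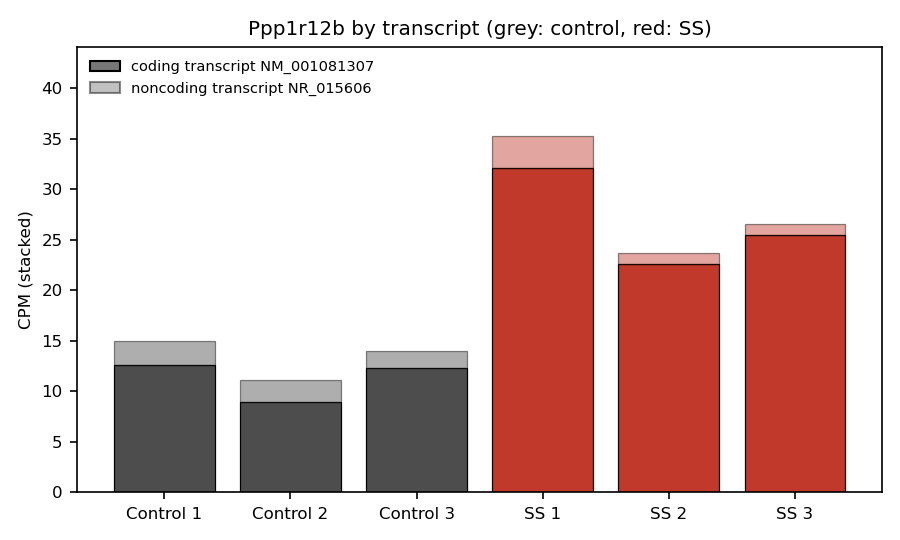
CPM of the coding and the noncoding transcript of Ppp1r12b, stacked, in each of the 6 tumors. The coding part is higher in each SS tumor than in each control tumor, while the noncoding part overlaps between the groups.

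The splits of Myh11 and Pdgfrb recurred between tumors. NM_001161775 took 57.2% of the counts of Myh11 in control tumor 2 and in SS tumors 2 and 3, and NM_001146268 took 49.3% of those of Pdgfrb in control tumor 1 and in SS tumors 2 and 3. No difference between the transcripts of these genes is reported. For Rgs5, NM_001313705 was at 3.92, 10.1 and 5.41 CPM in controls and at 6.55, 6.39 and 10.2 CPM in SS tumors, with overlap.

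Rgs5 encodes a regulator of G protein signaling and is a marker of pericytes in tumor vessels (chromosome 1 from 169655501 to 169695813, plus strand). The gene was at 18.02, 19.4 and 12.8 CPM in control tumors and at 16.04, 18.5 and 19.6 CPM in SS tumors. Control tumor 3 was apart, on the low side, and the others overlapped. With a log2 ratio of 0.11 ± 0.20 (SE), the sign turned to -0.053 without control tumor 3.

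Mcam encodes CD146, an adhesion molecule of pericytes, smooth muscle and endothelium (chromosome 9 from 44134658 to 44142726, plus strand). Its values were 8.06, 12.1 and 8.37 CPM in controls, and 11.8, 14.3 and 8.20 CPM in SS tumors. The groups overlapped, with a log2 ratio of 0.26 ± 0.28 (SE), which was 0.071 without SS tumor 2. Of 15 endothelial markers 13 had values, with sums of 93.00 to 138 CPM in control and 126 to 203 CPM in SS tumors, and SS tumor 2 was highest both for this list and for Mcam. Cdh5, the cadherin of endothelial junctions, was at 22.2 to 47.5 CPM, but Pecam1 was at 0 in 3 tumors and at most 0.596 CPM in the others. The endothelial part of the Mcam values was not tested.

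Pdgfrb encodes PDGFRβ, the receptor that recruits pericytes, which fibroblasts also carry (chromosome 18 from 61045150 to 61085067, plus strand). Control tumors showed 45.2, 81.1 and 76.7 CPM, and SS tumors 40.5, 58.1 and 67.5 CPM. Tumor 1 of either group was lower than the rest, and the log2 ratio was -0.29 ± 0.26 (SE), between -0.51 without control tumor 1 and -0.11 without SS tumor 1. Of 16 fibroblast markers 15 had values, with sums of 13810 to 19730 CPM in control and 9855 to 19130 CPM in SS tumors. SS tumor 1 had the lowest sum as well as the lowest Pdgfrb. The share of fibroblasts in the Pdgfrb values was not tested.

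**Figure D4:**
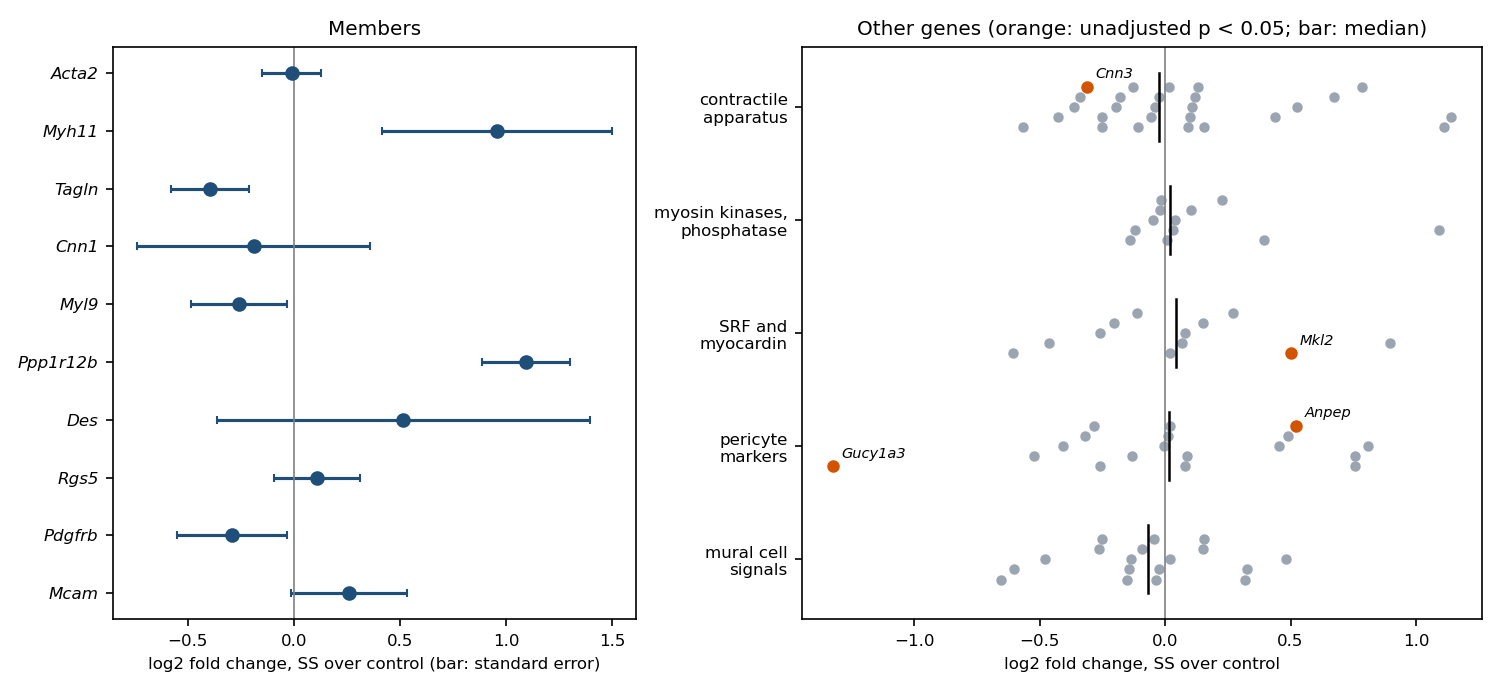
Log2 ratio of SS to control tumors for the 10 members with standard errors (left) and for the 87 other genes tested (right), in 5 lists with the median of each as a bar. Points in orange are the 4 genes with an unadjusted p under 0.05, and the medians lie between -0.069 and 0.043.

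The other genes of the contractile apparatus and of mural cells were then examined in 5 lists of 100 genes, of which 92 had values and 87 passed the filter on low counts. These lists too were written with earlier results of these tumors known, so their shares and p-values describe the genes and are no independent evidence. After adjustment DESeq2 called 0 of the 87, but it gave no adjusted p to some of them, Gucy1a3 and Mkl2 included. In edgeR's quasi-likelihood test 0 of the 87 had an adjusted p under 0.05. There 4 had an unadjusted p under 0.05, 2 higher and 2 lower in SS tumors. That is 4.6% of the genes, against 6.36% of all genes tested, and the count was 8 of 87 without control tumor 1 (9.2% against 7.81% of all genes) and 7 of 89 without SS tumor 3 (7.87% against 5.9%). Groups were apart for 8 genes, 3 higher and 5 lower in SS tumors, which is 9.2%, against 12.9% of all genes. The median log2 ratio was -0.0035 and that of all genes -0.0014.

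Among 27 tested genes of the contractile apparatus, 13 were above 0 and 14 below on the log2 scale, with a median of -0.025. Cnn3, the calponin of non-muscle cells, was at 115, 119 and 134 CPM in controls and at 106, 92.8 and 97.6 CPM in SS tumors, with no overlap. Its log2 ratio was -0.31 ± 0.11 (SE), with an unadjusted p of 0.021 and, by edgeR's quasi-likelihood test, adjusted p = 0.771. The groups were also apart, and lower in SS tumors, for Cald1, Csrp1 and Csrp2, which made 4 lower and 0 higher genes in this list, or 14.8%. Over all genes 12.9% were apart in either direction, and 6.51% were apart and higher in SS tumors. Cald1, caldesmon, was at 178, 186 and 224 CPM in controls and at 152, 166 and 174 CPM in SS tumors, a log2 ratio of -0.25 ± 0.12 (SE). Actg2, the γ-actin of smooth muscle, was at 33.7, 57.4 and 70.2 CPM against 42.8, 41.4 and 35.8 CPM, and like Tagln it was highest in control tumor 3 and lowest in control tumor 1. Pdlim3, an actinin-binding protein of muscle, and Mustn1, a small muscle protein, had the highest log2 ratios of the list, 1.11 ± 0.82 and 1.14 ± 1.04 (SE). With each tumor left out, these ran from 0.43 to 1.72 and from 0.56 to 2.17. Pdlim3 was at 11.6, 19.02 and 3.49 CPM in controls and at 4.21, 43.4 and 26.5 CPM in SS tumors, with SS tumor 2 highest, as for Acta1. Casq2, calsequestrin, had the lowest, -0.57 ± 1.42 (SE), but this ran from -4.19 without SS tumor 2 to 0.33 without control tumor 2. Fbxl22 and Pln had no values and were not analysed here.

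Of the kinases and phosphatase subunits that act on the light chain, 12 were tested, 0 had an unadjusted p under 0.05, and the median log2 ratio was 0.019. Ppp1r12a, the MYPT1 subunit of smooth muscle and a relative of Ppp1r12b, was at 209, 184 and 199.9 CPM in controls and at 205, 205 and 199 CPM in SS tumors, a log2 ratio of 0.041 ± 0.091 (SE). Another relative, Ppp1r12c, was at -0.14 ± 0.18 (SE). Ppp1cb, the catalytic subunit, ranged over 448 to 521 CPM in the 6 tumors. Mylk, myosin light chain kinase, was at 29.01, 27.4 and 25.9 CPM in controls and at 32.9, 46.5 and 28.99 CPM in SS tumors, with overlap and a log2 ratio of 0.39 ± 0.19 (SE). Mylk4, a further kinase of this family, had the highest ratio of the list, 1.09 ± 0.83 (SE). Whether Ppp1r12b differed from its relatives in response was not tested.

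The regulators of the contractile genes were represented by 12 tested genes, 7 above and 5 below 0. Srf was at 281, 246 and 259 CPM in controls and at 175, 233 and 249 CPM in SS tumors, and the groups overlapped (log2 ratio -0.26 ± 0.14, SE). Mkl2, the cofactor MRTF-B, was at 8.38, 8.01 and 7.96 CPM in controls and at 11.8, 10.7 and 11.9 CPM in SS tumors, with no overlap. Its log2 ratio was 0.50 ± 0.18 (SE), with an unadjusted p of 0.024 and, by edgeR's quasi-likelihood test, adjusted p = 0.771. Myocd, the cofactor of cardiac and smooth muscle, was at 0, 2.11 and 1.60 CPM in controls and at 0, 1.07 and 6.00 CPM in SS tumors, and the 2 tumors at 0, where 3 counts would be 0.244 and 0.219 CPM, were among the 3 with the highest Myh11. Klf5, a Krüppel-like factor, was lowest in SS tumor 1, at 24.6 CPM, and had a log2 ratio of -0.61 ± 0.26 (SE).

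Of 23 pericyte markers outside the members, 18 were tested, 10 above and 8 below 0, with a median of 0.015. Groups were apart for 3 of them, 2 higher and 1 lower in SS tumors, or 16.7%, against 12.9% of all genes. Tbx18 had the highest log2 ratio, 0.81 ± 0.50 (SE). It was at 0.632, 1.13 and 0.739 CPM in controls and at 1.16, 1.67 and 1.61 CPM in SS tumors. Gucy1a3, a subunit of the nitric oxide receptor guanylate cyclase, was at 2.45, 2.36 and 2.30 CPM in controls and at 0.726, 1.19 and 0.930 CPM in SS tumors. With a log2 ratio of -1.32 ± 0.44 (SE) it had an unadjusted p of 0.017 and, by edgeR's quasi-likelihood test, adjusted p = 0.771. Its partner Gucy1b3 was at 2.77, 1.57 and 1.60 CPM against 2.03, 0.119 and 1.86 CPM, with overlap. Anpep, the aminopeptidase CD13, which myeloid cells also carry, was at 25.9, 19.9 and 26.4 CPM in controls and at 34.6, 40.3 and 28.9 CPM in SS tumors. Its log2 ratio was 0.52 ± 0.18 (SE), with an unadjusted p of 0.022 and, by edgeR's quasi-likelihood test, adjusted p = 0.771. Cspg4, the NG2 proteoglycan, was at 0.011 ± 0.34 (SE), and the potassium channel genes Kcnj8 and Abcc9 were at -0.32 ± 0.45 and -0.28 ± 0.43 (SE). Vtn, Higd1b, Cox4i2 and Art3 had no values and were not analysed here. Apart from Ebf1, Notch3, Anpep and Heyl, no marker of this list passed 20 CPM in any tumor.

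The signals that pass between endothelium and mural cells had 18 tested genes, 6 above and 12 below 0, with a median of -0.069 and 0 at an unadjusted p under 0.05. Pdgfb, the ligand of PDGFRβ, was at 14.5, 18.1 and 15.2 CPM in controls and at 13.6, 15.4 and 14.5 CPM in SS tumors, a log2 ratio of -0.14 ± 0.17 (SE). Pdgfra, the related receptor of fibroblasts, was at -0.65 ± 0.35 (SE), and Angpt1, the angiopoietin made by pericytes, at -0.60 ± 0.43 (SE). SS tumor 1 was lowest for both, at 2.98 and 1.81 CPM. Tek, the receptor of angiopoietins, was highest in SS tumor 2, at 38.2 CPM, and lowest in control tumor 3, at 9.60 CPM.

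Likeness to the members was measured by Pearson's r over the 6 tumors, as a description, among 8028 genes with a mean log2 CPM above 2. For the mean of the 5 contractile members the nearest were Fam76a, Cops7a, Sh2b2, Rrp9 and Ppie, with r from 0.979 to 0.989. For the mean of Rgs5, Pdgfrb and Mcam they were Rrp7a, Kdm2a, Acaa1b, Sumf1 and Schip1, with r from 0.968 to 0.995. None of these 10 belongs to the lists, and with 6 tumors so many genes give high values. Profiles of single members were added after their values had been seen. The nearest genes to Des were Bsdc1, Kdelr2, Dnajc19, Kcnma1 and H19, with r from 0.982 to 0.989, and H19, an imprinted RNA of embryonic tissue and muscle, was lowest in SS tumor 1, at 15.1 CPM, and highest in SS tumor 2, at 152 CPM. Among those nearest to Myh11 were Slc9a3r2, Cd36, Slc9a7 and Prpf18, with r from 0.989 to 0.995, and Cd36, the fatty acid transporter of adipocytes and capillaries, was at 7.98, 2.95 and 2.75 CPM in controls and at 7.55, 10.2 and 3.97 CPM in SS tumors. For Ppp1r12b they were Macf1, Mkrn1, Tep1, Prex1 and Srcap, with r from 0.989 to 0.995.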

How the data were processed

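RNA of 3 control and 3 SS tumors was read from stranded, polyadenylated libraries as read pairs of 75 bases. What the authors deposited are estimated counts for each RefSeq transcript, not normalized, each with a sum over the tumors of at least 10. The submitters' processing notes name CASAVA 1.8.1, Bowtie2 2.2.5, STAR 2.5.3a and mm10. The counting tool and its strand setting are not given in the sources used here. The methods name quantile normalization and a t statistic, in place of which a count test was used. Transcripts were summed by symbol, with 21 symbols held as dates restored by accession, and rounded. Gene ends were taken as 1 base before the Stop column.

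edgeR 4.0.16 in R 4.3.3 was run with TMM, filterByExpr and its quasi-likelihood test, tested on simulated data, and p-values were adjusted by Benjamini-Hochberg. Alternatives were RLE and upper-quartile scaling, DESeq2 1.42.0, limma 3.58.1 on voom or quantile-normalized values, other filters, a replicate block and leaving out each tumor. Transcripts in place of genes, and totals without the skeletal list, were chosen after seeing the data. Depth limits genes near 3 counts, or 0.123 to 0.354 CPM, which covers counting error only.

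The members and lists were chosen with earlier results of these data known. Named genes were all members, list genes with an unadjusted p under 0.05, up to 2 in each direction by log2 ratio, genes without values or with low ones, and the 5 genes most like each profile, of which 1 is not reported here. Acta1, Krt5, Cdh5, Ppp1r12a, Ppp1cb, Srf, Cspg4, Kcnj8, Abcc9, Pdgfb, Ebf1, Notch3, Heyl, Trp63, Cdh3, Cald1, Csrp1, Csrp2, Kdr and Kcnma1 were named for their role after their values had been seen.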

Additional observations from a re-analysis of the deposited data

How the results depend on the processing

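The count of 0 genes after adjustment stayed at 0 under all alternatives run except DESeq2's Wald test, which gave 35, and the cause was not tested. The count at an unadjusted p under 0.05, 693, ran from 520 to 877 with each tumor left out and from 643 to 789 otherwise. Among the 87 genes outside the members, 4 became 7 with upper-quartile scaling, for which the cause was not tested, and 3 to 8 with each tumor left out, when 87 to 89 genes passed the filter. None of them was called after adjustment in any fit, though DESeq2 gave some of them no adjusted p. Tumors with the same number share only that number: their deviations correlated at 0.116, 0.0205 and 0.0767, and 3 of 6 tumors correlated best with their own number. With the number as a replicate block edgeR gave 0 genes after adjustment, 643 at an unadjusted p under 0.05 and 4 of the 87. These were Cald1, Cnn3, Csrp2 and Gucy1a3, so that Anpep and Mkl2 no longer had an unadjusted p under 0.05 under the block. The log2 ratio of Ppp1r12b was 1.08 there. The sign changed with some tumor left out for Acta2, Cnn1 and Rgs5. By transcript, Ppp1r12b was at -0.31 for NR_015606, as a difference of mean log2 CPM. Depth limits Cnn1, with 9 counts in SS tumor 3.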

Other observations

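Kcnmb1, the smooth muscle subunit of the calcium-activated potassium channel, did not pass the main filter on low counts. With the filter on zero counts only, edgeR's quasi-likelihood test gave it an unadjusted p under 0.05. So it did for 6.52% of 92 list genes and 5.75% of all genes, and 0 genes passed adjustment. Kcnmb1 was at 0, 0.147 and 0 CPM in control tumors 1, 2 and 3 and at 0.653, 0.477 and 0.676 CPM in SS tumors 1, 2 and 3. Each SS tumor was above each control, at a depth where 3 counts are 0.123 to 0.354 CPM. Kcnma1, the pore subunit of the same channel, was at 9.17, 13.3 and 9.93 CPM in control and at 3.05, 16.3 and 15.4 CPM in SS tumors, and it was lowest in SS tumor 1, as Des was.

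Of the endothelial list, 12 genes were tested, 9 above and 3 below 0, with a median log2 ratio of 0.40, and 2 of them, or 16.7%, had an unadjusted p under 0.05, against 6.36% of all genes. They were Vwf and Esam. Vwf, the von Willebrand factor, was at 18.5, 6.44 and 9.19 CPM in control and at 22.6, 35.8 and 19.7 CPM in SS tumors, with no overlap. Its unadjusted p was 0.019 and, by edgeR's quasi-likelihood test, adjusted p = 0.771. Esam, an adhesion molecule of endothelial junctions, was at 9.41, 9.78 and 7.22 CPM in control and at 10.5, 15.7 and 13.4 CPM in SS tumors, with a log2 ratio of 0.58 ± 0.23 (SE), an unadjusted p of 0.036 and, by edgeR's quasi-likelihood test, adjusted p = 0.771. Flt1, a receptor of VEGF, was at a log2 ratio of 0.59 ± 0.31 (SE). Robo4, Sox17 and Kdr were the 3 below 0, at -0.59 ± 0.33, -0.37 ± 0.64 and -0.17 ± 0.24 (SE). Sox17 turned to 0.091 without SS tumor 1 and Kdr to 0.021 without control tumor 1. Cdh5, above 0, turned to -0.21 without SS tumor 2.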
